A study of Mus musculus with 30 samples.

Results

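The matrix proteoglycan genes Dcn, Bgn, Fmod, Lum, Prelp, Vcan, Acan, Ogn, Aspn and Cilp were taken by GENCODE symbol from a table of RNA-seq read counts per gene in mouse hearts, and all 10 were found, each as 1 row, among 55487 gene identifiers. The 30 hearts were taken 8 weeks after transverse aortic constriction (TAC), in which a clip narrows the aorta and loads the left ventricle, or after a sham operation. In the floxed cohort, the groups FF_sham and FF_TAC carried a floxed Cpt1a gene and the groups KO_sham and KO_TAC a cardiac specific Cpt1a knockout, with 4 libraries in each. In the AAV9 cohort of C57Bl/6 mice, PBS_sham and PBS_TAC received saline (3 libraries each) and AAV_sham and AAV_TAC the vector AAV9.Cpt1a (4 each), in which the cardiac troponin T promoter drives Cpt1a. Cpt1a encodes the mitochondrial enzyme that admits long-chain fatty acids for oxidation.

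The labels limit the groups as models in several ways. The genotype label says knockout while the text of the series speaks of a knockdown, and neither the promoter that drives the Cre nor the sex or age of the mice is given. Clips of 0.016 and 0.018 inch were used, and which mouse received which is not stated. The titles of the KO_TAC libraries name both TAC and sham; their genotype and treatment labels and their column names give knockout and TAC, which was followed. Nothing in the labels says whether a library is 1 animal or a pool, so p-values measure the spread between these libraries.

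Small leucine-rich proteoglycans are core proteins with a horseshoe of leucine-rich repeats that bind collagen fibrils and set their width and spacing, and several also hold growth factors of the TGF-beta family in the matrix. Versican and aggrecan are large proteoglycans that bind hyaluronan and carry many chondroitin sulfate chains. In the heart such proteins are made mainly by fibroblasts, and their deposition accompanies fibrosis under pressure load. Cilp, cartilage intermediate layer protein, is a secreted matrix glycoprotein that binds TGF-beta1 and is strictly no proteoglycan.

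Of the 10 genes, 7 share a chromosome with another member. On the GRCm38 build with GENCODE annotation, Dcn (chr10:97479609-97518143, plus strand) and Lum (chr10:97565128-97572703, plus strand) are neighbours 46984 bp apart. Aspn (chr13:49544443-49567565, plus strand) and Ogn (chr13:49608046-49624501, plus strand) lie in the row Ecm2, Aspn, Omd, Ogn, and Vcan lies farther along the same chromosome (chr13:89655312-89742509, minus strand). Fmod (chr1:134037254-134048277, plus strand) and Prelp (chr1:133910304-133921414, minus strand) are 115839 bp apart. Bgn (chrX:73483602-73495933, plus strand), Acan (chr7:79053483-79115099, plus strand) and Cilp (chr9:65265180-65280605, plus strand) are alone on theirs. Exons of 2 members overlap a gene on the opposite strand: Prelp with the antisense gene Gm15851, and Aspn, by a few bases, with Cenpp. The strand setting of the counting is not given in the sources used here, so both are uncertain to that extent.

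The promoters of 4 members are shown because Cilp and Bgn had the largest changes among the genes called and because Ogn and Aspn, which lie near each other on chromosome 13, had log2 fold changes of opposite sign in KO_TAC against KO_sham, neither of them called and the difference between them not tested. Each run is the 250 bases before the RefSeq start on GRCm38.p6, 5′ to 3′ on the gene's strand. Capitals mark a TATA-like TATAA or a CATTCC, the core bound by TEAD factors, on either strand. The windows are chr9:65264930-65265179 for Cilp, chrX:73483351-73483600 for Bgn, chr13:49607765-49608014 for Ogn and chr13:49544193-49544442 for Aspn, all on the plus strand.
Cilp: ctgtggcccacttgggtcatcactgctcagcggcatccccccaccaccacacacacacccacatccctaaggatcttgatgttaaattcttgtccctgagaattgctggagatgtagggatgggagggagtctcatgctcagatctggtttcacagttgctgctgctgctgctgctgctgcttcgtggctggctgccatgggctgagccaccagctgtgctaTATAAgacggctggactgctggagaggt
Bgn: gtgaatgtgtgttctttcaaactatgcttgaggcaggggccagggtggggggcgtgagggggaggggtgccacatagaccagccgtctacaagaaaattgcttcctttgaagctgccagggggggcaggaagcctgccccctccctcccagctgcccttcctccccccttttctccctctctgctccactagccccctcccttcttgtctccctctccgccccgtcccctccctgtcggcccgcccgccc
Ogn: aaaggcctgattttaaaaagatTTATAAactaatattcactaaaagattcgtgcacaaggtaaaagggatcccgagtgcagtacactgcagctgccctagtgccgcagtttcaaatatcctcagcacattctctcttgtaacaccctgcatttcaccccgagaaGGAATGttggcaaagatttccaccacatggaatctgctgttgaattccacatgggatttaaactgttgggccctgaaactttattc
Aspn: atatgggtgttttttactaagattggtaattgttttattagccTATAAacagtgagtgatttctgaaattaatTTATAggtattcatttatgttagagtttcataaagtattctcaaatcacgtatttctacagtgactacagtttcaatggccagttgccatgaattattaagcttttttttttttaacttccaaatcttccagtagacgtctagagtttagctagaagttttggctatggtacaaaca

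RefSeq windows were matched for 8 of the 10 members, all but Dcn and Lum. The motifs searched on both strands were the TATA-like TATAA, the TEAD core CATTCC, the AP-1 site TGANTCA, the SMAD-bound CAGAC and the CArG box. TATAA was in 3 of the 8 windows, against 22.8% of 32851 RefSeq promoter windows of the same length. Counted back from the start, Cilp has it at −28, Aspn at −207 and −177, and Ogn as an overlapping pair at −228 and −227. CATTCC was in 2 of 8, Ogn and Acan (12.6% of all windows), and CAGAC in 2 of 8, Fmod and Prelp (42.2%). TGANTCA and the CArG box were in 0 of 8, against 6.75% and 1.47% of all windows. None of the 5 motifs was in the windows of Bgn or Vcan. The Bgn window is 64.4% G and C and that of Aspn 30%. These matches are letters in a window, and no binding was measured here.

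Several libraries stand apart, and the values bear on the floxed comparisons. Cpt1a, the targeted gene, was at 37.8 to 52.7 CPM (TMM-scaled read counts relative to the library's total) in FF_sham and 11.1 to 19.6 CPM in KO_TAC. The libraries labelled FF_TAC 2 and FF_TAC 3, at 20.3 and 16.2 CPM, lay with the knockouts, and the library labelled KO_sham 2, at 46.3 CPM, lay with the floxed controls. In AAV_sham Cpt1a was at 56.3 to 88.4 CPM and in PBS_sham at 37.4 to 68.0; in AAV_TAC it was at 44.8 to 62.7 and in PBS_TAC at 40.3 to 61.6, nearly the same range. Summed haemoglobin transcripts, from residual blood, were under 100 CPM in 7 libraries: those same 3 and all 4 of KO_TAC. Their early response genes summed to at least 2289.5 CPM, against at most 1247 in the other 23. Mitochondrially encoded genes took 12.1% to 18.7% of counts in KO_TAC and 19.3% to 26.0% elsewhere. PBS_sham 3 had 1159 CPM of smooth muscle markers against at most 353 in any other library, and the lowest cardiomyocyte marker sum (21497 CPM against at least 43306). Totals ran from 14839758 to 22070373 counts per library.

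**Figure D1:**
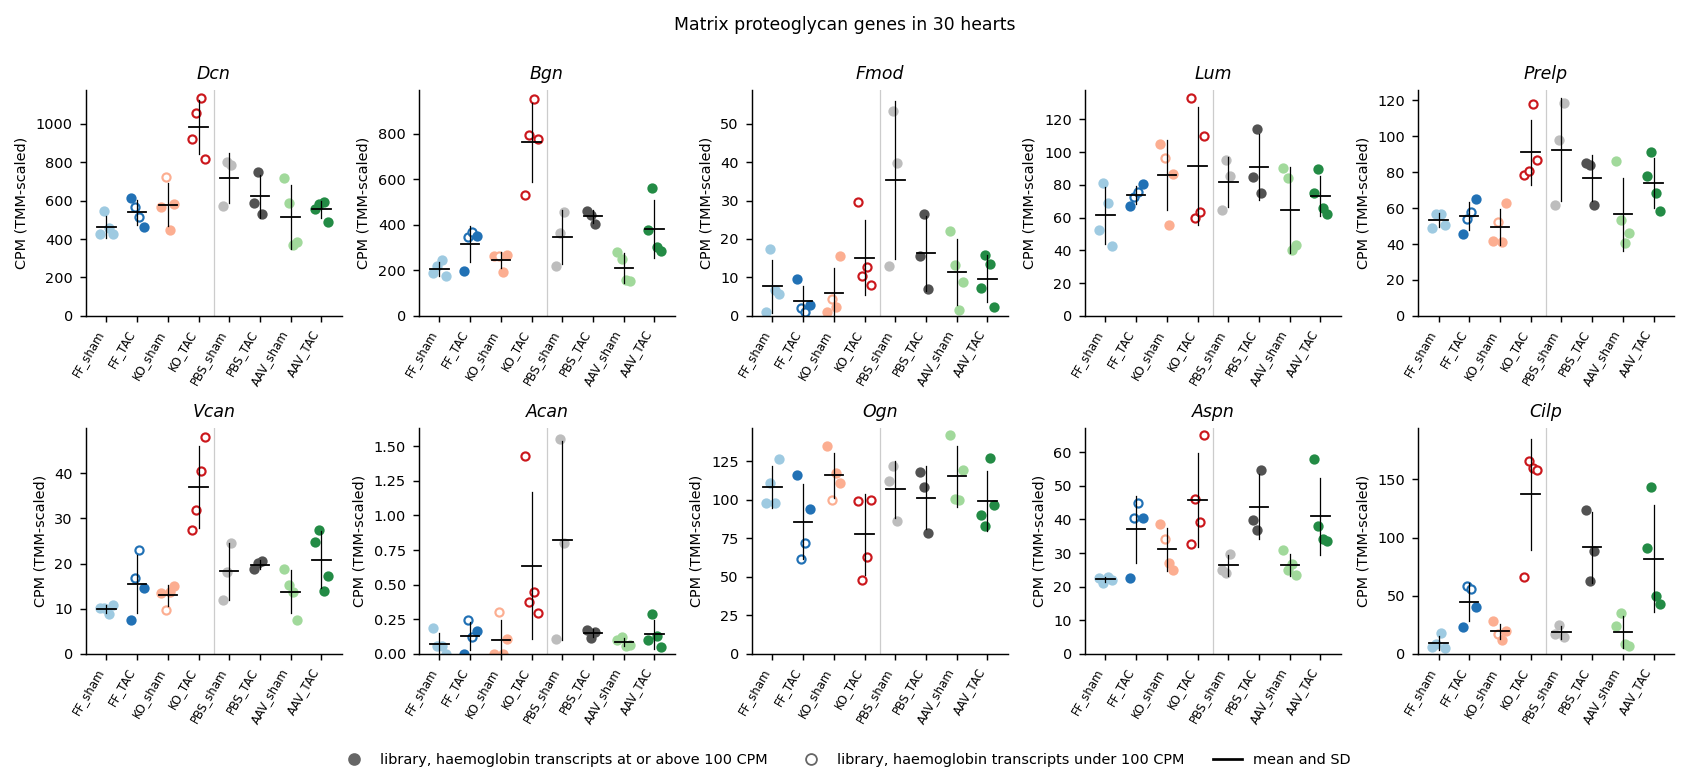
Level of each matrix proteoglycan gene in CPM (vertical axes; each panel has its own scale) in the 30 libraries by group (horizontal axis), with the group mean ± SD as bars; open points are the 7 libraries with under 100 CPM of haemoglobin. In Dcn, Bgn, Prelp, Vcan and Cilp every KO_TAC point lies above every KO_sham and FF_TAC point, while Ogn is not raised in KO_TAC. Of all genes, 23.1% had no overlap between KO_TAC and KO_sham libraries, in either direction. That share was not computed against FF_TAC.

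Per kilobase of exon, decorin (Dcn), which binds the surface of collagen fibrils, had the highest mean level of the 10 genes in all 8 groups and aggrecan (Acan) the lowest. In FF_sham the order ran from Dcn at 79.4 CPM per kb through Ogn at 42.3, Bgn at 34.0, Lum at 25.1, Prelp at 14.8 and Aspn at 9.41 to Fmod at 2.33, Cilp at 2.22, Vcan at 0.69 and Acan at 0.0099. The ranges of Ogn and Bgn, of Bgn and Lum, and of Fmod and Cilp overlapped between libraries, so those neighbours in the order cannot be separated. In KO_TAC the level per kilobase was 168 for Dcn and 125 for Bgn, whose ranges overlapped. Next came Lum at 37.4 CPM per kb, Cilp at 32.3, Ogn at 30.2, Prelp at 25.2 and Aspn at 19.4, each overlapping the next, and then Fmod at 4.58 and Vcan at 2.56. Cilp, which stood behind Fmod in FF_sham, thus stood among Lum, Ogn and Prelp in KO_TAC.

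Under TAC the knockout hearts carried more RNA of the fibril-binding decorin, biglycan and Prelp, of versican and of Cilp than the knockout hearts after sham surgery. Of the 9 genes that passed the filter on low counts, 5 were called in KO_TAC against KO_sham (edgeR's quasi-likelihood test, Benjamini-Hochberg adjusted p under 0.05), all 5 higher, while 25.8% of all 15596 genes tested were called and 14.3% were called higher. Libraries of the 2 groups did not overlap in 6 of the 9 genes (23.1% of all genes), 5 higher in KO_TAC and Ogn lower. The median log2 fold change of the 9 was 0.88, and that of all genes 0.02. The tenth gene, Acan, did not pass the filter in either cohort.

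Among the class of leucine-rich proteoglycans with chondroitin or dermatan sulfate chains, Dcn was at 568, 721, 446 and 584 CPM in KO_sham 1 to 4 and at 919, 1057, 1136 and 818 in KO_TAC 1 to 4. The lowest KO_TAC library was above the highest KO_sham library, the one labelled KO_sham 2. Dcn rose 1.69-fold (log2 fold change 0.76, SE 0.15, adjusted p 0.00399). Biglycan (Bgn), the closest relative of decorin, whose soluble form is a ligand of the innate receptors TLR2 and TLR4, was at 261, 265, 194 and 267 CPM in KO_sham and 531, 793, 951 and 776 in KO_TAC. The lowest KO_TAC library, at 531 CPM, was far above the KO_sham maximum of 267. Bgn rose 3.09-fold (1.63, SE 0.21, adjusted p 0.000547).

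Asporin (Aspn), which lacks the attached sugar chain and binds TGF-beta, was not called: it had 38.6, 34.3, 26.9 and 24.8 CPM in KO_sham and 32.7, 46.0, 39.3 and 65.0 in KO_TAC, so the groups overlapped (log2 fold change 0.55, SE 0.22, adjusted p 0.0742). It passed without KO_TAC 1 (0.68, adjusted p 0.0241), and was 0.32 without KO_TAC 4 (adjusted p 0.251) and 0.30 with a term for the haemoglobin split (adjusted p 0.550).

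Of the keratan sulfate class, Prelp, a heparin-binding protein that ties basement membranes to the matrix, was the 1 member called. It was at 42.0, 52.4, 41.2 and 62.7 CPM in KO_sham and 78.3, 81.0, 118 and 87.1 in KO_TAC, with no overlap. Prelp rose 1.84-fold (log2 fold change 0.88, SE 0.16, adjusted p 0.00273). Lumican (Lum) and fibromodulin (Fmod), which act in fibril assembly, were not called: Lum ran from 55.8 to 105 CPM in KO_sham and 59.5 to 133 in KO_TAC (0.09, SE 0.26, adjusted p 0.817), and Fmod from 1.01 to 15.6 and 7.98 to 29.6 (1.37, SE 0.84, adjusted p 0.233).

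Osteoglycin (Ogn), also called mimecan, was the 1 member with every KO_TAC library below every KO_sham library: 135, 99.95, 118 and 111 CPM in KO_sham and 99.3, 48.2, 63.1 and 99.8 in KO_TAC. The gap at the edge of the groups was under 1 CPM, and Ogn, at −0.58 on the log2 scale (SE 0.23), missed the threshold with an adjusted p of 0.0719. It was called without KO_TAC 1 (−0.73, adjusted p 0.0271), without KO_TAC 4 (−0.73, adjusted p 0.0425) and with all 30 libraries in 1 fit (adjusted p 0.0393), but was −0.41 without KO_TAC 2 (adjusted p 0.188) and −0.21 with a term for the haemoglobin split (adjusted p 0.660).

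Versican (Vcan), the large proteoglycan of provisional matrix, was at 13.5, 9.67, 13.7 and 15.1 CPM in KO_sham and 27.5, 31.8, 40.6 and 47.9 in KO_TAC. All KO_TAC libraries were above all KO_sham libraries, and Vcan rose 2.84-fold (log2 fold change 1.51, SE 0.26, adjusted p 0.00229). Cilp, the TGF-beta1-binding glycoprotein, had the largest change of the members tested: it went from 28.0, 17.2, 11.8 and 20.0 CPM in KO_sham to 65.7, 165, 160 and 158 in KO_TAC. KO_TAC 1 stood well below the other 3 and still above every KO_sham library. Cilp rose 7.12-fold (2.83, SE 0.43, adjusted p 0.0012).

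All 4 KO_TAC libraries and 1 KO_sham library were low in haemoglobin, so the split between libraries moves with this comparison. With a term for the split, Bgn (1.42, adjusted p 0.0229) and Cilp (2.49, adjusted p 0.0443) stayed called, and Dcn (0.62, adjusted p 0.0963), Prelp (0.84, adjusted p 0.0564) and Vcan (1.26, adjusted p 0.0853) did not; over all genes the calls fell from 4031 to 273. The library labelled KO_sham 2, itself haemoglobin-low, was below every KO_TAC library in all 5 genes. Its Cpt1a, at 46.3 CPM, lay with the floxed controls, and the part of the split was not tested with this 1 library. Without the 3 libraries at odds with their Cpt1a label, chosen for this after the data were seen, the 5 genes stayed called (Dcn 0.87, Bgn 1.65, Prelp 0.89, Vcan 1.38, Cilp 2.77). In that fit every KO_TAC library was haemoglobin-low and every KO_sham library haemoglobin-high, so it cannot tell the comparison from the split.

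Against hearts labelled floxed that also underwent TAC, the same 5 genes were higher in KO_TAC. Which clip each mouse received is not stated, so equal load in the 2 groups is not known. In KO_TAC against FF_TAC 5 of 9 members were called, all higher, against 14.3% of all genes called and 7.53% called higher; the comparison shares its KO_TAC libraries with the one above and is no separate evidence about them. The median log2 fold change was 0.86 over the 9 and 0.04 over all genes. Dcn was at 615, 567, 514 and 463 CPM in FF_TAC, all below KO_TAC, and was 1.82-fold higher in KO_TAC (log2 fold change 0.86, SE 0.15, adjusted p 0.00248). Bgn was at 199, 346, 366 and 351 CPM and was 2.42-fold higher in KO_TAC (1.27, SE 0.20, adjusted p 0.00167). For both, the highest FF_TAC library was below the lowest KO_TAC library. The share of all genes with no overlap between libraries was not computed for this comparison.

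Prelp was at 45.7, 54.0, 57.9 and 65.0 CPM in FF_TAC (1.64-fold higher in KO_TAC; 0.71, SE 0.16, adjusted p 0.00883). Vcan was at 7.40, 16.7, 23.0 and 14.6 CPM (2.40-fold; 1.26, SE 0.26, adjusted p 0.00578), and Cilp at 22.8, 58.3, 55.5 and 40.6 CPM (3.10-fold; 1.63, SE 0.41, adjusted p 0.0165). FF_TAC 1 was the lowest of its group in these last 3 genes and in Bgn. Ogn, at 61.4 to 116 CPM in FF_TAC, showed no such difference (−0.15, SE 0.23, adjusted p 0.693), nor were Aspn (0.30, adjusted p 0.364), Lum (0.31, adjusted p 0.443) or Fmod (1.96, SE 0.86, adjusted p 0.139) called.

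The calls in KO_TAC against FF_TAC depended in part on the libraries and the fit. With only the groups compared in the fit, Prelp (adjusted p 0.0544) and Vcan (adjusted p 0.0618) were not called. Cilp was not called without FF_TAC 1 (1.41, adjusted p 0.0513), without FF_TAC 4 (1.59, adjusted p 0.0561) or with a term for the haemoglobin split (1.46, adjusted p 0.0666). In a fit of the haemoglobin-low libraries only, 4 KO_TAC against those labelled FF_TAC 2 and FF_TAC 3, the values were 0.84 for Dcn, 1.07 for Bgn, 0.68 for Prelp, 0.87 for Vcan and 1.24 for Cilp, and 0 of the members and 0 of 15311 genes tested were called. Without the 3 libraries at odds with their Cpt1a label the 5 genes stayed called (Dcn 0.85, Bgn 1.46, Prelp 0.70, Vcan 1.73, Cilp 2.099). There too, every KO_TAC library was haemoglobin-low and every FF_TAC library left was haemoglobin-high, so the comparison and the split cannot be told apart.

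**Figure D2:**
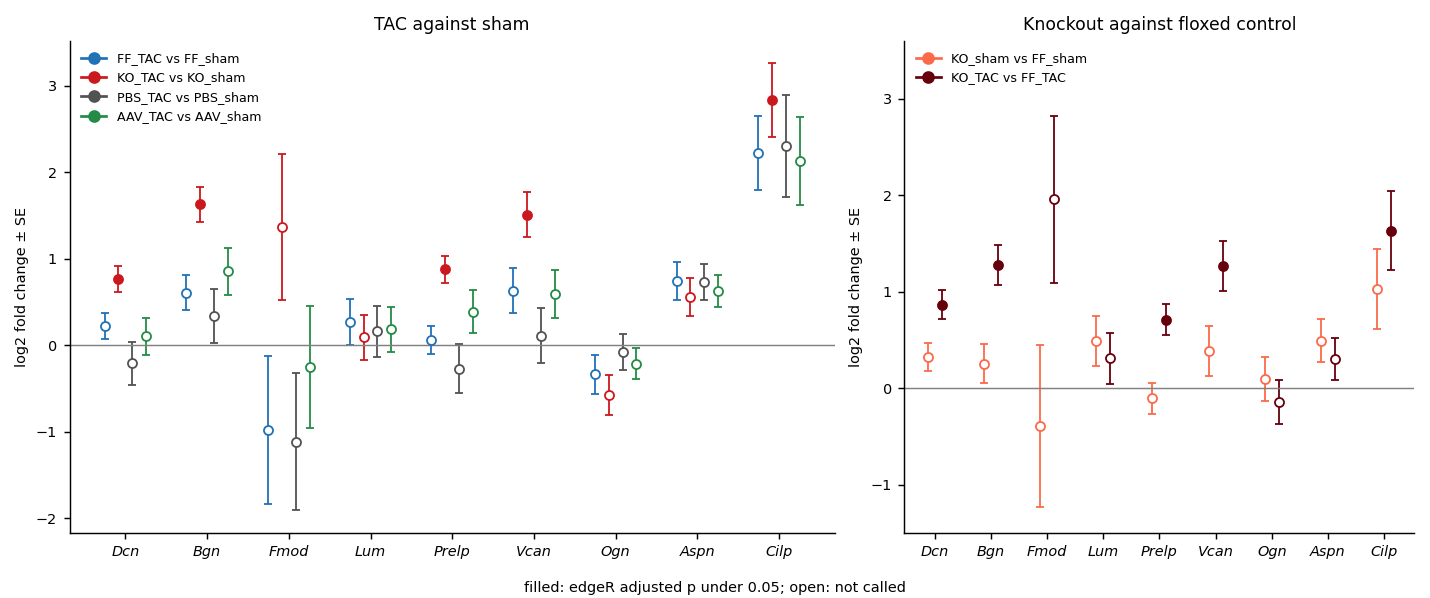
Log2 fold change ± SE (vertical axes) of the 9 matrix proteoglycan genes tested (horizontal axes), TAC against sham in the 4 arms on the left and knockout against floxed after sham and after TAC on the right; filled points have an adjusted p under 0.05. Cilp lies between 2.13 and 2.83 in all 4 arms under TAC, and the filled points are the 5 genes called in each comparison that holds KO_TAC.

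Whether load acted differently in knockout and floxed hearts is the interaction of knockout and TAC. edgeR called 0 of 9 members, against 0.0449% of all genes; 4 members had an unadjusted p under 0.05, against 13.1% of all genes. Those 4 were Bgn (log2 difference 1.02, SE 0.29, adjusted p 0.152), Prelp (0.82, SE 0.22, adjusted p 0.147), Dcn (0.54, SE 0.21, adjusted p 0.287) and Vcan (0.88, SE 0.37, adjusted p 0.323), all with the larger change in the knockouts. For Cilp the difference was 0.61 (SE 0.58, adjusted p 0.667). DESeq2 called 2 of the members, Bgn and Prelp, and 2.35% of all genes. Without KO_TAC 1, edgeR called Bgn (1.15, adjusted p 0.0469).

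In the arms without the knockout, Cilp had the highest log2 fold change of the members under TAC in every arm, and Aspn came next in the floxed and saline arms; edgeR called neither. In FF_TAC against FF_sham 0 of 9 members were called (0% of all genes), 4 had an unadjusted p under 0.05 (11.1% of all genes) and 1, Cilp, had no overlap between libraries (6.03% of all genes). Cilp was at 5.87, 8.83, 18.0 and 5.06 CPM in FF_sham against 22.8 to 58.3 in FF_TAC (4.68-fold; log2 fold change 2.23, SE 0.43, adjusted p 0.328). DESeq2 called Cilp, the 1 member it called, and 1.07% of all genes, and edgeR called it without FF_TAC 1 (2.43, adjusted p 0.0458).

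The other 3 were Aspn, Bgn and Vcan. Aspn stood at 22.5, 21.2, 22.9 and 22.1 CPM in FF_sham and at 22.5, 40.5, 44.8 and 40.4 in FF_TAC (0.74, SE 0.22, adjusted p 0.328). FF_TAC 1 was inside the FF_sham range and the other 3 far above it. Bgn (0.61, SE 0.20, adjusted p 0.350) and Vcan (0.63, SE 0.26, adjusted p 0.417) had the same form, with FF_TAC 1 at 199 and 7.40 CPM, inside and below the FF_sham ranges of 177 to 246 and 8.82 to 10.8. In all, FF_TAC 1 was inside the FF_sham range in 6 of the 10 genes, above it in 2 and below it in 2. FF_TAC 2, FF_TAC 3 and FF_TAC 4 were inside that range in 3, 4 and 4 genes. Among haemoglobin-high libraries alone, which leaves FF_TAC 1 and 4, the changes were 1.74 for Cilp, 0.51 for Aspn, 0.41 for Bgn and 0.15 for Vcan. Dcn (0.22, adjusted p 0.573) and Ogn (−0.34, adjusted p 0.568) were not called either.

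In the saline arm of the AAV9 cohort, Cilp and Aspn were the members with the lowest p-values. In PBS_TAC against PBS_sham 0 of 9 members were called (0.0318% of all genes), 2 had an unadjusted p under 0.05 (18.5% of all genes) and the same 2 had no overlap between libraries (14.7% of all genes). Cilp was at 16.8, 24.8 and 14.2 CPM in PBS_sham and 124, 63.0 and 88.2 in PBS_TAC (4.93-fold; log2 fold change 2.30, SE 0.59, adjusted p 0.142). Aspn was at 24.995, 24.2 and 29.8 CPM in PBS_sham and 39.7, 36.7 and 54.7 in PBS_TAC (1.66-fold; 0.73, SE 0.21, adjusted p 0.155). DESeq2 called both, with 2.25% of all genes. Dcn was not higher under load here, with 570, 800 and 788 CPM in PBS_sham and 586, 749 and 532 in PBS_TAC (−0.21, not called).

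With the vector, 0 of 9 members were called in AAV_TAC against AAV_sham (0.00635% of all genes), with 3 at an unadjusted p under 0.05 (7.05%); the same 3 had no overlap between libraries (10.7%), all higher. Cilp was at 24.2, 35.3, 8.42 and 6.72 CPM in AAV_sham and 91.0, 143, 49.99 and 43.0 in AAV_TAC (4.38-fold; log2 fold change 2.13, SE 0.51, adjusted p 0.221). Aspn was at 23.4 to 30.9 CPM and 33.7 to 57.9 (1.55-fold; 0.63, SE 0.18, adjusted p 0.330). Bgn was at 279, 252, 158 and 154 CPM and 377, 560, 301 and 284, where the lowest AAV_TAC library was just above the highest AAV_sham library (1.81-fold; 0.85, SE 0.28, adjusted p 0.423). DESeq2 called 1 member, Cilp, and 0.596% of all genes.

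The direct test of vector and load found no member: 0 of 9 were called in the interaction of vector and TAC (0.00635% of all genes), with 0 at an unadjusted p under 0.05 (6.95%). For Cilp the difference between the arms was −0.17 with an SE of 0.75, an error several times the size of the difference. In AAV_TAC against PBS_TAC 0 members were called (0.0381% of all genes), with 0 at an unadjusted p under 0.05 (3.19%). Their log2 fold changes there ran from −0.75 for Fmod to 0.08 for Vcan.

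Between the sham groups no member was called in either cohort. In KO_sham against FF_sham the count was 0 of 9 (0% of all genes), with 3 at an unadjusted p under 0.05 (5.22%): Dcn (0.32, SE 0.15, adjusted p 0.950), Aspn (0.49, SE 0.22, adjusted p 0.944) and Cilp (1.03, SE 0.42, adjusted p 0.916), each with a positive value for KO_sham. Dcn was 0.20 without the library labelled KO_sham 2, and Cilp ran from 0.79 without KO_sham 1 to 1.54 without FF_sham 3. In AAV_sham against PBS_sham 0 of 9 were called (0.0127%), with 3 at an unadjusted p under 0.05 (20.7%), each with a negative value for AAV_sham: Bgn (−0.72, SE 0.29, adjusted p 0.205), Prelp (−0.71, SE 0.27, adjusted p 0.185) and Fmod (−1.63, SE 0.74, adjusted p 0.234). The PBS_sham libraries were uneven: Bgn was at 219 CPM in PBS_sham 1 and at 366 and 455 in the other 2. Without PBS_sham 1, Bgn (−0.95, adjusted p 0.0416) and Prelp (−0.92, adjusted p 0.0349) were called, and so was Acan. That fit also called far more of all genes, with the count given further below, so these calls are not particular to the members. PBS_sham 3, the library high in smooth muscle markers, had the most Bgn and Prelp of its group. DESeq2 called 1 member, Acan, and 1.97% of all genes.

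Aggrecan (Acan), the large proteoglycan of cartilage, was close to absent. Its count was 3 or fewer in 21 of 30 libraries and 0 in 4, and at most 29. The counts in KO_TAC were 29, 5, 8 and 5 and in KO_sham 0, 5, 0 and 2, and the highest others were 28 and 20 in PBS_sham 2 and 3. DESeq2, which tested it, called Acan higher in KO_TAC than in KO_sham (log2 fold change 2.73, adjusted p 0.03996), which made 6 members called there, with 26.7% of all genes; edgeR called it with all 30 libraries in 1 fit (2.69, adjusted p 0.0188) and did not without the filter (2.65, adjusted p 0.0655). The first of the KO_TAC libraries holds most of these counts.

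Fmod was the most variable of the members tested, and libraries of 1 group were far apart: FF_sham held 1.04, 17.4, 6.60 and 5.67 CPM. Its highest levels were 53.2 and 39.8 CPM in PBS_sham 2 and 3 and 29.6 in KO_TAC 1. The library highest in Fmod was also the highest of its group in adipocyte markers in 7 of 8 groups. For resting fibroblast and for epicardial markers this held in 6, and for atrial and for macrophage markers in 5. With 3 or 4 libraries to a group, some such matches arise by chance. Atrial markers summed to 9419 CPM in KO_TAC 1 and 3743 in PBS_sham 2, against 31.4 to 39.9 in KO_TAC 2 to 4. For Dcn the highest library was the highest in atrial markers in 6 of 8 groups, and for Bgn in 0 of 8. Resting fibroblast, epicardial and adipocyte markers each matched Dcn in 5. Bgn was highest in the library highest in activated fibroblast markers in 6 of 8 groups, and in cartilage, valve and tendon markers in 5. The part of dissection or cell mixture in these levels was not tested.

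**Figure D3:**
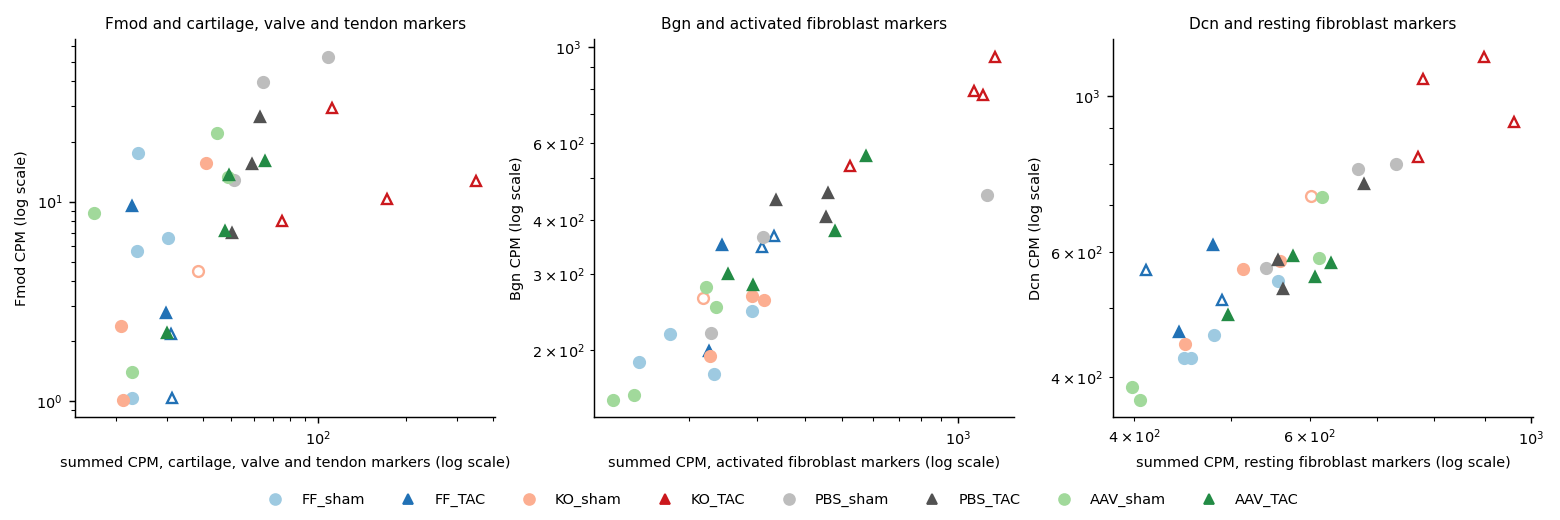
Level of Fmod, Bgn and Dcn (vertical axes, CPM, log scale) against the summed level of cartilage, valve and tendon markers, activated fibroblast markers and resting fibroblast markers (horizontal axes, CPM, log scale) in the 30 libraries; circles are sham, triangles TAC, and open symbols the haemoglobin-low libraries. KO_TAC has 531 to 951 CPM of Bgn at 525 to 1243 CPM of activated fibroblast markers, and PBS_sham 3 has 455 CPM of Bgn at 1188.

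Markers of the cells that make these proteins moved with the KO_TAC groups. Activated fibroblast markers (8 genes, among them Postn) summed to 525 to 1243 CPM in KO_TAC, 217 to 314 in KO_sham and 225 to 333 in FF_TAC; 5 of 8 were called higher than in KO_sham (14.3% of all genes) and 6 of 8 higher than in FF_TAC (7.53%). Resting fibroblast markers summed to 771 to 962 CPM in KO_TAC, 450 to 601 in KO_sham and 410 to 490 in FF_TAC, with 2 and 3 of 9 called higher, against the same shares of all genes. In bulk tissue, more cells of a type and more RNA per cell cannot be told apart. Cartilage, valve and tendon markers summed to 74.7 to 349 CPM in KO_TAC against 20.9 to 41.0 in KO_sham, mostly from Comp, at 63.9, 132, 307 and 42.8 CPM in KO_TAC. Of the 6 genes of that list tested, 3 were called higher than in KO_sham (Comp, Scx and Sox9) and 1 lower; Sox9 was at 8.07 to 12.6 CPM in KO_TAC and 2.72 to 6.32 in KO_sham. Col11a2 and Chad reached 26.5 and 20.1 CPM, both in PBS_sham libraries, while 4 other cartilage genes were near 0, with at most 11 counts of Col2a1, 13 of Col9a1 and 2 of Matn1 or Matn3 in any library. Some cardiomyocyte markers (3 of 6 called lower than in KO_sham, among them Pln) and endothelial markers (3 of 6 lower, among them Kdr) went the other way. Of all genes, 25.8% were called there and 14.3% called higher. The sums overlapped, with 43306 to 59614 CPM of cardiomyocyte markers in KO_TAC and 50324 to 52305 in KO_sham. Endothelial markers summed to 589 to 810 and 693 to 1015 CPM. Against FF_TAC, 3 endothelial markers were called lower and 1 higher. Pln overlaps Cep85l and Gm47644 and is uncertain. The part of these marker levels in the members' changes was not tested.

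Ratios within a library do not depend on its scaling, and are given per kilobase as a description. The ratio of Bgn to Dcn averaged 0.43 in FF_sham, 0.41 in KO_sham, 0.45 in PBS_sham and 0.39 in AAV_sham, and 0.58, 0.75, 0.68 and 0.65 in the TAC groups of the same arms. In the knockout, saline and vector arms the ranges of sham and TAC did not overlap (0.35 to 0.44 against 0.55 to 0.91 in the knockouts), and in the floxed arm FF_TAC 1, at 0.31, was the lowest of all 30 libraries. Ogn to Bgn averaged 1.28 in FF_sham and 0.73 in FF_TAC, and 1.14 in KO_sham and 0.26 in KO_TAC (0.90 to 1.44 against 0.14 to 0.44). Cilp to Dcn averaged 0.046 in KO_sham and 0.193 in KO_TAC, close to 0.211 in PBS_TAC and 0.200 in AAV_TAC, and was 0.115 in FF_TAC. The members thus were not in fixed proportion. In the knockout arm, Cilp to Dcn and Bgn to Dcn were higher in every TAC library than in every sham library. Ogn to Bgn was lower in every TAC library there. Vcan to Dcn overlapped, at 0.0054 to 0.0124 in KO_sham and 0.0121 to 0.0237 in KO_TAC. These ratios come from the levels above and are no separate evidence. No share over other gene pairs was computed, and in this arm TAC moves with the haemoglobin split. The summed level of the 10 genes was 2241 ± 277 CPM in KO_TAC and 1147 ± 167 in KO_sham (SD, n = 4 each).

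**Figure D4:**
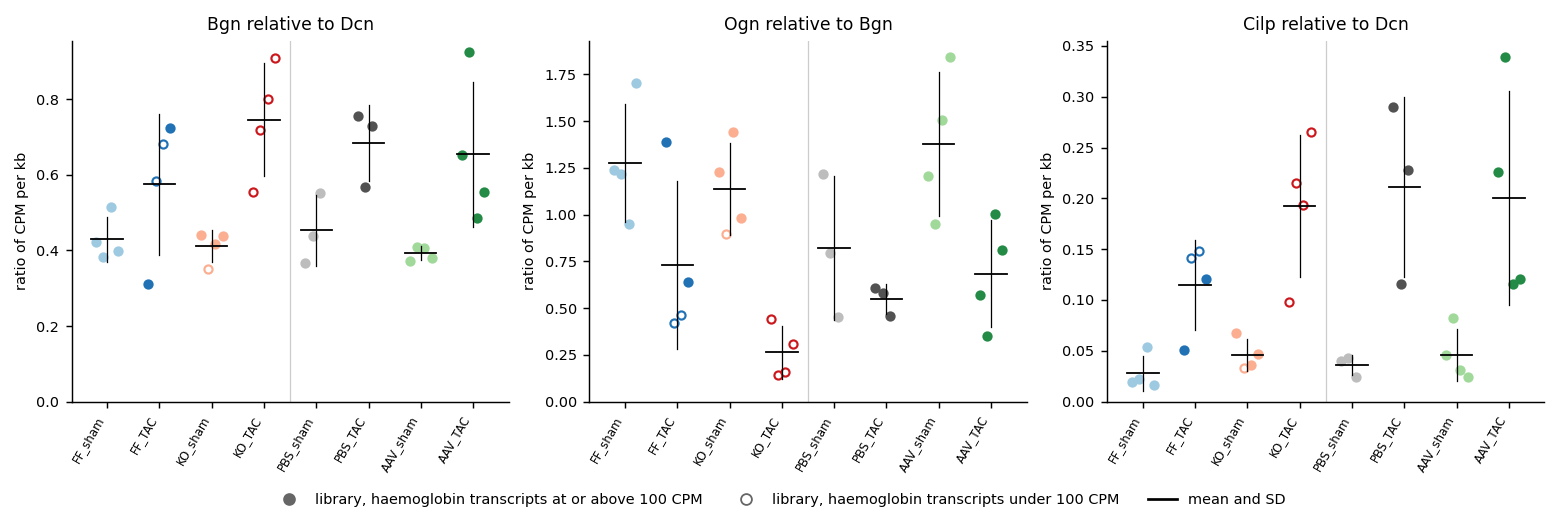
Ratios of Bgn to Dcn, Ogn to Bgn and Cilp to Dcn, each per kilobase of exon (vertical axes, no unit), in the 30 libraries by group (horizontal axes); open points are the haemoglobin-low libraries. Bgn to Dcn lies at 0.35 to 0.55 in the sham libraries and at 0.48 to 0.92 in all TAC libraries but FF_TAC 1, at 0.31.

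Other genes of the pathway were read in 6 lists. The list of proteases that cleave proteoglycan core proteins also holds the protease inhibitor Timp3. It had 7 of 16 called higher in KO_TAC than in KO_sham (14.3% of all genes) and 0 lower, with a median log2 fold change of 0.68. Against FF_TAC, 4 of 16 were higher (7.53% of all genes). Mmp14, a membrane-bound collagenase, had a mean of 60.9 CPM in KO_TAC and 23.1 in FF_TAC (1.40, SE 0.19, adjusted p 0.000781), and Mmp2, the gelatinase it activates, 122.8 and 70.7 CPM (0.80, adjusted p 0.00199). Adamts20, a relative of the versican-cleaving proteases, rose from 0.47 to 2.86 CPM against KO_sham (2.60, SE 0.56, adjusted p 0.00571). Adamts8, whose exons overlap Gm29724 and which is therefore uncertain, gave 2.95 (adjusted p 0.0134).

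Ligands and receptors bound by the members had 8 of 14 called higher and 1 lower in KO_TAC against KO_sham (median 0.79; 14.3% of all genes higher), and 5 higher and 1 lower against FF_TAC (median 0.80; 7.53% of all genes higher). Tlr2, a receptor for soluble biglycan, had a mean of 12.2 CPM in KO_sham and 73.7 in KO_TAC (log2 fold change 2.60, SE 0.72, adjusted p 0.0183). Tgfb1, whose product decorin and Cilp bind, went from 33.4 to 89.1 CPM (1.42, SE 0.30, adjusted p 0.00525), and Tgfb2 from 17.9 to 62.5 CPM (1.81, SE 0.25, adjusted p 0.00079; overlaps Gm29491, uncertain). Col1a1, the collagen of the fibrils that decorin coats, was at 123 CPM in FF_TAC and 251.7 in KO_TAC (1.03, SE 0.20, adjusted p 0.00377). The 1 gene called lower was Kdr, the VEGF receptor of endothelial cells that is also in the endothelial marker list, at 190.8 CPM in FF_TAC and 74.8 in KO_TAC (−1.35, SE 0.24, adjusted p 0.00263).

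Genes for hyaluronan, the chain to which versican binds, had 2 of 11 called higher and 2 lower against KO_sham, and 1 and 1 against FF_TAC; both counts of higher genes are near the all-gene shares of 14.3% and 7.53%. Cd44, the cell surface receptor of hyaluronan, went from 12.2 CPM in KO_sham to 50.7 in KO_TAC (2.05, SE 0.41, adjusted p 0.00399), and the synthase Has2 from 0.90 to 11.4 CPM (3.66, SE 0.77, adjusted p 0.00537; overlaps Has2os, uncertain). Has3 (−1.44, adjusted p 0.0198) overlaps Chtf8 and is uncertain. Stab2, a scavenger receptor of hyaluronan, was lower than in FF_TAC (−1.48, adjusted p 0.0109), at a mean of 0.43 CPM.

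Genes that build the sugar chains had 5 of 28 called higher against KO_sham and 0 lower, with a list median of 0.01, and the share called higher was near the 14.3% of all genes. The count against FF_TAC was 4 higher and 1 lower (7.53% of all genes higher). Chpf, of chondroitin polymerisation, went from 26.3 to 43.8 CPM (0.74, SE 0.11, adjusted p 0.00111), and the dermatan sulfate epimerase Dse was at 6.12 CPM in FF_TAC and 13.02 in KO_TAC (1.09, SE 0.14, adjusted p 0.000488). Against KO_sham, the related Dsel (0.59, adjusted p 0.0128) and Papss2, which makes the sulfate donor (0.60, adjusted p 0.0379), were higher. In each of the comparisons 23 of the 28 were not called.

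Among other leucine-rich and secreted proteoglycans 3 of 10 were called higher and 1 lower against KO_sham (14.3% of all genes higher), and 2 of 10 higher against FF_TAC (7.53%). Prg4, lubricin, went from 15.8 CPM in KO_sham to 84.8 in KO_TAC (2.42, SE 0.28, adjusted p 0.000381; overlaps Tpr, uncertain), and Tsku, the secreted leucine-rich protein tsukushi, from 3.65 to 8.15 CPM (1.16, SE 0.26, adjusted p 0.0079). Of basement membrane and cell surface proteoglycans 2 of 13 were called higher in each comparison and 0 lower, a share near that of all genes against KO_sham (14.3%, and 7.53% against FF_TAC). Sdc4, a syndecan of cell adhesions, was at 29.3 CPM in KO_sham and 165.6 in KO_TAC (2.50, SE 0.64, adjusted p 0.0137), and the glypican Gpc4 (0.50, adjusted p 0.0227) and the syndecan Sdc2 (0.37, adjusted p 0.0227) were higher than in FF_TAC. No gene of these 6 lists was called by edgeR in the other comparisons. The values of these list genes were read from the main fit only, and their values with a term for the haemoglobin split were not examined.

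The chromosomal neighbours of the members differed one from another. Between Aspn and Ogn, Omd gave 0.31 in KO_TAC against KO_sham and was not called, nor were Ecm2 (0.01) and Nol8 (0.51, adjusted p 0.0604). Beside Cilp, Clpx was lower (−0.27, adjusted p 0.0453) and Parp16 was not called, and beside Bgn, Haus7 was higher (0.60, adjusted p 0.0414). Isg20, next to Acan, was higher against KO_sham (1.24, adjusted p 0.00396) and against FF_TAC (1.04, adjusted p 0.0117), as was Btg1, the coding gene before Dcn (1.08, adjusted p 0.00789, and 0.93, adjusted p 0.0200). Xrcc4, next to Vcan, gave 0.37 (adjusted p 0.0364) and overlaps Tmem167. Kera, Optc and Hapln1, neighbours of Lum, Prelp and Vcan, did not pass the filter on low counts.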

How the data were processed

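The values are counts of RNA-seq reads per gene that the authors deposited as 1 table for all libraries. Per the labels' protocols, 200 ng of RNA with a RIN above 7 went through poly(A) selection and a stranded kit and was read as 100 bp paired ends. HISAT2 2.1.0, featureCounts, Subread 1.5.1 and the build GRCm38 are named in the submitters' processing notes; the strand setting and annotation release are not given in the sources used here. Of 55487 identifiers, 55227 were matched to a symbol, and those without one held 0.00336% of the counts.

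CPM values were computed with TMM-scaled totals, and the haemoglobin sums with plain library totals. The TMM factors were set within each cohort, so CPM values set side by side across cohorts were not scaled together. Tests used edgeR 4.0.16 in R 4.3.3 (quasi-likelihood, filterByExpr, 4 group means in a fit per cohort, Benjamini-Hochberg adjustment over 15596 or 15745 genes); the interaction is the difference of the TAC changes. DESeq2 1.42.0, other scalings, filters and sample sets were tried as alternatives, and the scripts were tested on simulated data. The SE of an edgeR value is its absolute log2 fold change divided by the square root of the test's F statistic. The members and gene lists were chosen with earlier results of these data known. All members are described; of each list, up to 3 called genes per comparison with the largest changes, no overlap between libraries and a mean of at least 1 CPM in a group are named, and other names were chosen after their values were seen. No 2 libraries of a group agree within sampling noise (chi-square per degree of freedom 6.29 to 234 over 42 pairs). The series also mentions miR370 overexpression, which is not analysed here. One gene that the naming rule picks is not reported here.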

Additional observations from a re-analysis of the deposited data

Results flagged for a closer look

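In 4 cases 1 library of a group of 4 lay far from the other 3, with a gap to the nearest that, as a share of the group's range, was above Dixon's critical value; 60 such tests were run, and chance flags about 1 in 20 groups. Bgn in FF_TAC 1 was at 199.1 CPM against 346 to 366 in the other FF_TAC libraries (gap 0.877 of the range). FF_TAC 1 was the lowest of its group in 7 of the 10 genes. Bgn in KO_sham 3 was at 193.9 CPM against 261 to 267 (0.915). Cilp in KO_TAC 1 was at 65.7 CPM against 158 to 165 (0.923), and Acan in the same library was at 1.43 CPM, the highest of its group (0.870). KO_TAC 1 also had 9419 CPM of atrial markers, against 31.4 to 39.9 in the other KO_TAC libraries, and the lowest activated fibroblast sum of its group, 525 CPM. The part of these in its Cilp and Acan levels was not tested. Without KO_TAC 1, Cilp changed by more against KO_sham and stayed called.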

How the results depend on the processing

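The alternatives were counted over 32 results, the member changes with an unadjusted p under 0.05 in the main edgeR fit. Weaker changes, which reverse more readily, were left out by this choice. Of the values under alternatives, 539 kept their direction and side of the threshold, 13 lost a call, 17 gained one and 0 reversed. Only the 5 members called in KO_TAC against KO_sham and the 5 in KO_TAC against FF_TAC had a call to lose. DESeq2 called 1 member in FF_TAC against FF_sham, 2 in the interaction of knockout and TAC, 2 in PBS_TAC against PBS_sham, 1 in AAV_TAC against AAV_sham and 1 in AAV_sham against PBS_sham, where edgeR called 0. Without the filter on low counts edgeR called 1 in each of the last 3. With the haemoglobin term, KO_TAC against KO_sham had 2 members called. Among haemoglobin-low libraries alone, KO_TAC against FF_TAC had 0, and with only the groups compared in the fit it had 3. Both of these fits of KO_TAC against FF_TAC held fewer libraries. The cause of these and the other moves was not tested. Leaving out each library in turn gave 0 to 1 members in FF_TAC against FF_sham, the interaction of knockout and TAC and PBS_TAC against PBS_sham (Acan, without PBS_sham 1), 0 to 3 in AAV_sham against PBS_sham, 4 to 5 in KO_TAC against FF_TAC and 5 to 7 in KO_TAC against KO_sham. There, the changes ran from 0.64 to 0.87 for Dcn, 1.499 to 1.76 for Bgn, 0.72 to 1.003 for Prelp, 1.35 to 1.62 for Vcan and 2.65 to 3.07 for Cilp. Over all genes, the calls went from 5 to 1796 in PBS_TAC against PBS_sham and from 2 to 2821 in AAV_sham against PBS_sham without PBS_sham 1. The share of all genes called is not given for the unfiltered fit, the fit of only the groups compared or the other leave-out fits. Their member counts therefore cannot be set against it. Plain library totals, tried after seeing the data, moved the median of all genes to −0.21 in PBS_TAC against PBS_sham, −0.27 in AAV_sham against PBS_sham and 0.21 in the interaction of vector and TAC.

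With the replicate number as a block, 6 members were called in KO_TAC against KO_sham, with Ogn added (−0.63, adjusted p 0.0244), 5 in KO_TAC against FF_TAC and 0 in the other comparisons. The share of all genes called with the block is not given here. The numbers were not taken to pair the libraries, since not every same-numbered pair's deviations correlated above 0.1 in any comparison: the correlations ran from −0.371 to 0.2 in KO_TAC against KO_sham and from −0.0265 to 0.442 in KO_TAC against FF_TAC. A library correlated best with its own number in 0 of 4 and 2 of 4 pairs there. Fits within 1 side of the haemoglobin split were not run for KO_TAC against KO_sham or the interactions, which have too few libraries on a side. Depth limits Acan, with 3 counts or fewer in 21 libraries.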
